A study of Homo sapiens and Homo sapiens
Mus with 12 samples.

Results

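The annexin family was followed through CDH11 knockdown as a set of 10 genes: ANXA1, ANXA2, ANXA3, ANXA4, ANXA5, ANXA6, ANXA7, ANXA8, ANXA10 and ANXA11. They were matched by symbol in the RNA-seq count tables of cultured cells and of xenograft tumors. ANXA5 was chosen by its measured rise in both systems, so its values against the control are a description and carry no test, while the other 9 genes came with it as members of its family. Of 21479 genes listed for the cultured cells, all 10 annexins were present and 7 had enough counts to be tested. Of 26813 human genes listed for the tumors, 8 annexins were present and 7 were tested. ANXA3 and ANXA8 were not analysed here in the tumors.

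The cells were UM-UC-3, an established line from an advanced human bladder cancer. They were infected with a lentivirus carrying GFP and a short hairpin RNA, and GFP-positive cells were collected by FACS, so controls and knockdown cells share the vector, GFP and the sort. shCtrl carried a non-silencing hairpin, and sh#1 and sh#2 carried 2 different hairpins against CDH11, which encodes the cell adhesion protein cadherin-11. CDH11 KD below means sh#1 and sh#2 together. In culture, each of the 3 groups had 3 libraries of cells grown for 24 h in 12-well plates. For the tumors, the same cells were injected in Matrigel under the skin of 5-week-old male BALB/cAJcl-nu/nu nude mice, and 5 tumors a group were sampled at 4 weeks. Nude mice lack T cells but keep fibroblasts, blood vessels and macrophages, and the mouse reads of each tumor were counted in a table of their own. The number of infections and sorts per hairpin is not given in the sources used here, so each hairpin may be 1 infected and sorted population. The labels do not say that the cultured libraries came from separate cultures, so p-values measure the spread between these libraries, which may be technical.

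Annexins are proteins that bind acidic phospholipids when calcium rises, through a repeated annexin core, and so move from the cytosol to membranes. They take part in membrane repair, in the traffic of vesicles and in the linking of membranes to actin. ANXA5 binds phosphatidylserine with high affinity, which is why labelled annexin V is the usual stain for dying cells.

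The cultured libraries held 2273182 to 2777019 counts and the tumors held 414849 to 1248977 human counts, the lowest being sh#1 tumor 1. Mouse genes took 10.4 to 14.4% of the counts of shCtrl tumors, 10.4 to 30.0% of sh#1 tumors and 13 to 18.8% of sh#2 tumors, with the highest share in sh#1 tumor 1. The targeted gene CDH11 had few counts, 2 to 4 in cultured shCtrl libraries, 0 to 1 with sh#1 and 0 to 2 with sh#2. In tumors it had 5 to 32, 1 to 9 and 2 to 14 counts. Of 10 urothelial markers, EPCAM, UPK1B and UPK3A were at 0 in every cultured library, whereas the keratins KRT8 and KRT18 and the mesenchymal filament VIM were well detected. The deposited barcode list puts each tumor group in its own library mix, so mix and group cannot be told apart.

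ANXA5 lies on the minus strand of chr4:121667946-121696995 (hg38, GENCODE v44) and its main transcript has 13 exons over 1638 bases. The other members lie on chromosomes 2, 4, 5, 9, 10 and 15. Their main transcripts have 12 to 16 exons, apart from ANXA6, which has 26 and encodes a protein with the annexin core in duplicate. The promoter windows of the 4 members that differed most clearly between hairpins in culture are printed below to show the sequence from which these transcripts start. Each is the RefSeq window on GRCh38.p14 from 250 bases before to 50 bases after the start, written 5′ to 3′ on the strand of the gene. It is chr4:121696931-121697230 (minus) for ANXA5, chr15:60397937-60398236 (minus) for ANXA2, chr5:151157730-151158029 (minus) for the first ANXA6 window and chr9:73151615-73151914 (plus) for ANXA1. Capitals mark ACGTG or GCGTG on either strand, the core letters of the hypoxia response element, where a match on the opposite strand reads CACGT or CACGC and overlapping matches are joined.
ANXA5: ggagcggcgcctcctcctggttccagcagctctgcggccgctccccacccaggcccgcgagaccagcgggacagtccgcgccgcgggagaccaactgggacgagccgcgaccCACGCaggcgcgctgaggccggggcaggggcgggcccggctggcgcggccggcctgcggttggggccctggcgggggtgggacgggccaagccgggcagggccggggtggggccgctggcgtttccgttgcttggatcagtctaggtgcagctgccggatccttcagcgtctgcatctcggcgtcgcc
ANXA2: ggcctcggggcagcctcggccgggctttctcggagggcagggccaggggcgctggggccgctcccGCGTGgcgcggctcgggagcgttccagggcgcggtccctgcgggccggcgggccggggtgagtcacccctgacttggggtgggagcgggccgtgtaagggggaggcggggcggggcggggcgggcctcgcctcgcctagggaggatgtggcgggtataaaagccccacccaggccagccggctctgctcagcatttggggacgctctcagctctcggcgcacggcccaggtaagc
ANXA6: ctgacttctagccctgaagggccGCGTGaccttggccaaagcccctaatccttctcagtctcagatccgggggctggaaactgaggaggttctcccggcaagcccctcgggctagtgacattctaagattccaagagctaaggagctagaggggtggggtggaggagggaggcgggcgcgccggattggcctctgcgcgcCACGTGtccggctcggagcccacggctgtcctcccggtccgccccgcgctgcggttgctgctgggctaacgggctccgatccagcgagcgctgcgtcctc
ANXA1: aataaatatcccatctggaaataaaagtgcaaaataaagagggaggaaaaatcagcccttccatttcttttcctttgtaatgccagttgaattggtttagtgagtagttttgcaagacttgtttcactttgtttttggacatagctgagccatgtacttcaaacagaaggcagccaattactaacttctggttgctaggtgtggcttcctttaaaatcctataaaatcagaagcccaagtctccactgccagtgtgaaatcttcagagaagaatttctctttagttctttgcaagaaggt
ANXA5 and ANXA2 each held 1 match to GCGTG, the ANXA6 window held 2 matches to ACGTG and 1 to GCGTG, and ANXA1 held none. The 2 ACGTG matches of ANXA6 overlap as CACGTG, a single site that matches on both strands. Over the family, 13 windows were given for 9 members and 7 held either motif. Of 35116 windows of the same length in the RefSeq table, 21.4% held ACGTG, 36.5% held GCGTG and 48.4% held either, so a match is common and is given as a description only.

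Within each system, normalized ANXA5 was higher in every library with a CDH11 hairpin than in every control library. ANXA5 was chosen for this rise. The share of all genes that separate in this way was not counted in either system, so how unusual it is cannot be told. In the cultured shCtrl libraries it had 144, 163 and 162 CPM (counts scaled to library size by TMM normalization), in sh#1 it had 212, 184 and 220.2, and in sh#2 it had 278, 275 and 286. The raw counts behind these were 365 to 424, 423 to 625 and 575 to 595. As CPM the 3 groups did not overlap and lay in the order shCtrl, sh#1, sh#2, whereas the ranges of raw counts overlapped. The means were 156 ± 10.8 CPM in shCtrl, 205 ± 19.0 in sh#1 and 279.6 ± 6.04 in sh#2 (SD, n = 3 each). The log2 fold change against shCtrl was 0.40 (standard error 0.0767) for sh#1, 0.84 (standard error 0.0758) for sh#2 and 0.63 (standard error 0.132) for CDH11 KD, and these are the values on which ANXA5 was selected.

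That choice was made for the rise against shCtrl and not for the difference between the hairpins, which was tested. The difference comes from the same libraries, so its p-value is not independent of the choice. In culture ANXA5 was 1.36-fold higher with sh#2 than with sh#1, a log2 fold change of 0.44 (standard error 0.0735, edgeR quasi-likelihood test, Benjamini-Hochberg adjusted p = 4.49e-06). It stayed between 0.38 and 0.50 under 14 alternative settings and passed the threshold in all 14. The summed CPM of 10 urothelial markers also stood apart in culture, at 236 to 269 in shCtrl, 308 to 323 in sh#1 and 276 to 292 in sh#2. The keratins KRT8 (mean 123 CPM) and KRT18 (153 CPM) made up nearly all of this sum. Of these markers 3 were at 0 in all libraries, 4 were tested and none was called for CDH11 KD. The summed CPM of 4 mesenchymal markers, VIM foremost, was 2283 to 2446 in shCtrl, 2382 to 2584 in sh#1 and 4070 to 4491 in sh#2, and so was also higher with sh#2 than with sh#1. VIM made up nearly all of this sum (mean 2894 CPM in culture, beside 97.8 for ZEB1, 33.6 for CDH2 and 8.74 for FN1). The sum therefore mostly follows VIM and does not show how the other markers moved. Of these 4 markers none was at 0 in all libraries and none was called with both hairpins together. The part of either shift in the ANXA5 values was not tested.

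In the tumors the raw ANXA5 counts were lower and overlapped, at 110 to 241 in shCtrl, 112 to 267 in sh#1 and 132 to 238 in sh#2. As CPM, knockdown and control tumors again separated. The 5 shCtrl tumors had 193, 209.9, 212, 212 and 169 CPM. The sh#1 tumors had 311, 280.3, 283, 244 and 251 CPM. The sh#2 tumors had 218, 275, 228, 233 and 252 CPM. All 10 CDH11 KD tumors lay above all 5 shCtrl tumors, with the lowest sh#2 tumor only just above the highest shCtrl tumors. The share of all genes with such a separation was not counted. The means were 199 ± 18.8, 274 ± 27.0 and 241 ± 22.9 CPM (SD, n = 5 each). Against shCtrl the log2 fold change was 0.45 (standard error 0.114) for sh#1, 0.27 (standard error 0.114) for sh#2 and 0.36 (standard error 0.103) for CDH11 KD, given here as a description. In bulk tissue, fewer cells of a type and less RNA per cell cannot be told apart.

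**Figure D1:**
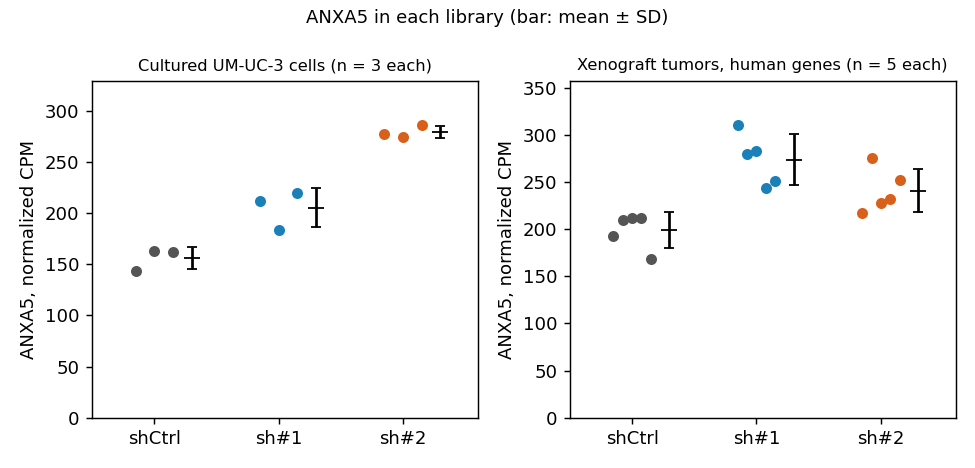
Normalized CPM of ANXA5 (vertical axis, from 0) in each library of shCtrl, sh#1 and sh#2, in cultured cells on the left and in tumors on the right, with points for libraries and bars for the mean ± SD. Every knockdown library lies above every control library of its system, and sh#2 is the highest group in culture (275 to 286) while sh#1 has the highest mean in tumors (274).

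The order of the hairpins was not that of the cultured cells. ANXA5 was lower with sh#2 than with sh#1 in tumors by a log2 fold change of -0.18 (standard error 0.114, 95% interval -0.40 to 0.05, edgeR quasi-likelihood test, Benjamini-Hochberg adjusted p = 0.636), and the sh#1 and sh#2 tumors overlapped. Whether the hairpin difference itself differs between culture and tumors was not tested, since the 2 systems were sequenced and counted separately. The tumor with the highest ANXA5, sh#1 tumor 1, also had the highest mouse share (30.0%) and the lowest human count. Without that tumor the CDH11 KD log2 fold change was 0.33, and it was 0.32 in a fit that took the mouse-to-human count ratio into account.

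The host's own Anxa5 gave a separate reading in the same tumors. Mouse Anxa5 had 11 to 41 counts in shCtrl tumors, 18 to 32 in sh#1 tumors and 7 to 54 in sh#2 tumors. As CPM of mouse genes, the means were 224 ± 55.8, 237 ± 59.9 and 218 ± 85.4 (SD, n = 5 each), and the groups overlapped. The log2 fold change of CDH11 KD against shCtrl was 0.02 (standard error 0.251, 95% interval -0.47 to 0.51, edgeR quasi-likelihood test, Benjamini-Hochberg adjusted p = 0.99). The interval includes the size of the human ANXA5 difference, so at this depth a change of that size was not detectable, and the sign of this value changed in 8 of 20 alternative settings. Mouse reads made up 3.11 to 22.2% of the human and mouse ANXA5 counts of a tumor.

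Among the other annexins in culture, the hairpins gave different patterns. With both hairpins together, 0 of 6 tested annexins passed an adjusted p of 0.05, where 17.4% of all tested genes did (edgeR quasi-likelihood test, Benjamini-Hochberg adjusted). At an unadjusted p under 0.05 it was also 0 of 6, where 3138 of all 9859 tested genes were, and DESeq2 called 0 annexins. In the fit of 3 groups, which the hairpin results below use, ANXA2 was called for both hairpins together (log2 fold change 0.27, edgeR, Benjamini-Hochberg adjusted p = 7.11e-06), and 3291 genes were called in place of 1719. With sh#1 alone 1 of 6 rose and none fell, against 22.4% of all genes called in either direction. With sh#2 alone 3 of 6 rose and none fell, against 38.3% of all genes. Between the hairpins 5 of 7 annexins differed, ANXA5 included, against 24.7% of all genes. The 4 annexins higher with sh#2 than with sh#1 were ANXA2, ANXA4, ANXA5 and ANXA6, and ANXA1 was lower.

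ANXA2 links the plasma membrane to actin and, bound to S100A10, serves as a surface docking site for plasminogen. It had 2860, 3082 and 3006 CPM in shCtrl, 2651, 2799 and 2792 in sh#1 and 4720.0, 4753 and 4577 in sh#2. The sh#2 libraries stood well above all others, and the sh#1 libraries lay just under the lowest control. ANXA2 rose 1.57-fold with sh#2 (log2 fold change 0.65, standard error 0.0536, edgeR quasi-likelihood test, Benjamini-Hochberg adjusted p = 3.58e-15). With sh#1 its log2 fold change was -0.12 (standard error 0.0536, adjusted p = 0.109 by edgeR with Benjamini-Hochberg adjustment), which did not pass. The hairpin difference was 0.77 (standard error 0.0538, edgeR with Benjamini-Hochberg adjustment, adjusted p = 2.36e-17). Reads that ANXA2 shares with its pseudogene copies could not be examined in culture, where no counts of these copies were used.

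S100A10, the partner of ANXA2, was singled out after its values were seen. In culture it had a log2 fold change of -0.02 in sh#1 and of 0.70 in sh#2, and it differed between the hairpins (edgeR quasi-likelihood test, Benjamini-Hochberg adjusted p = 4.54e-13). It was 1 of 3 called among the 8 tested S100 and penta-EF-hand genes, beside 24.7% of all genes. In tumors its log2 fold change was 0.12 for sh#1 and 0.02 for sh#2 (adjusted p = 0.887 for the difference by edgeR with Benjamini-Hochberg adjustment). The mesenchymal marker sum, mostly VIM, stood apart in the same sh#2 cultures (4070 to 4491 CPM). Its part in the ANXA2 and S100A10 results was not tested.

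**Figure D2:**
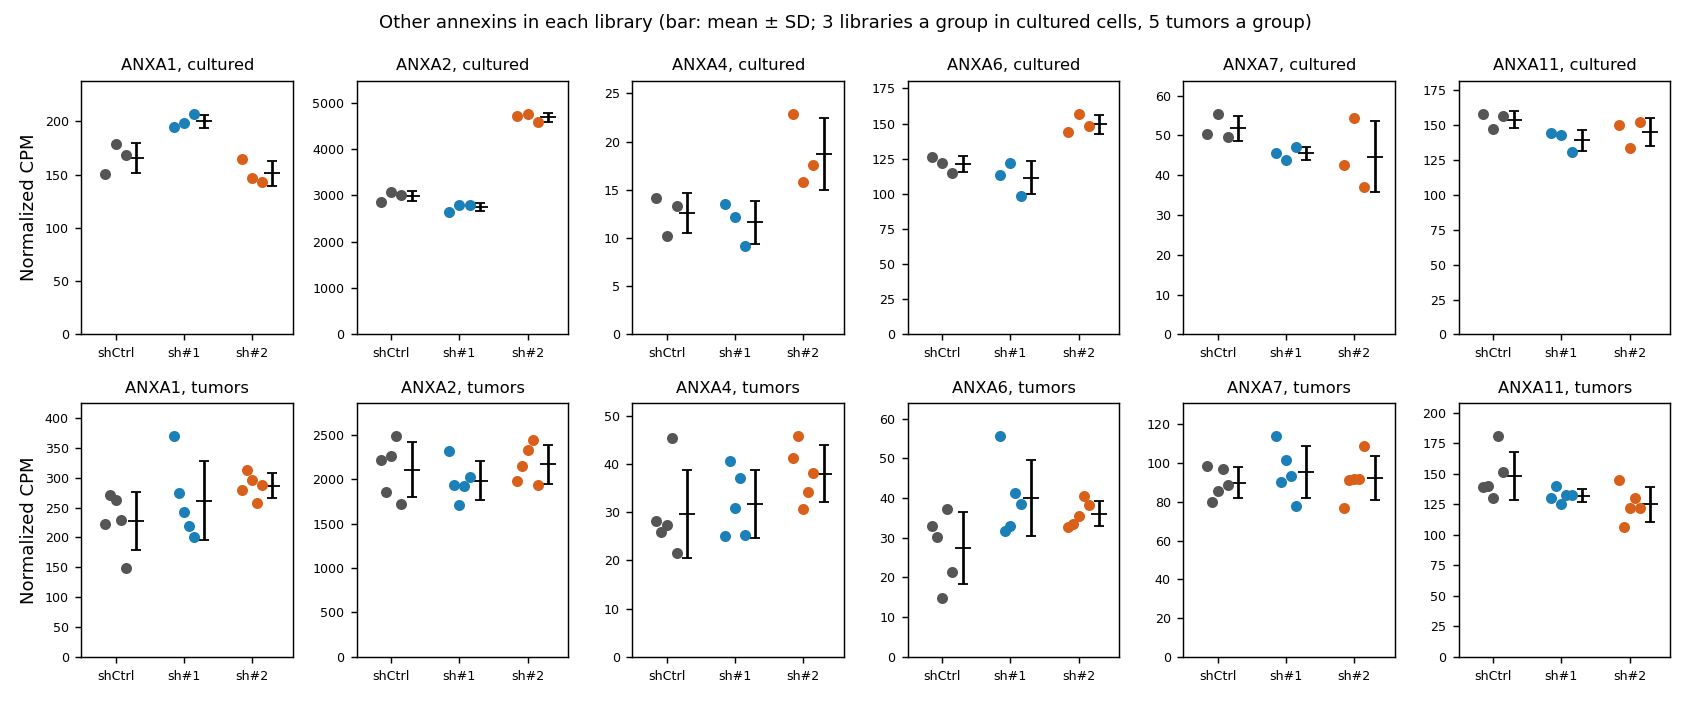
Normalized CPM (vertical axes, each from 0) of ANXA1, ANXA2, ANXA4, ANXA6, ANXA7 and ANXA11 in each library, with cultured cells in the upper row and tumors in the lower row, and bars for the mean ± SD. In culture ANXA2, ANXA4 and ANXA6 are highest with sh#2 and ANXA1 is highest with sh#1, while in tumors the 3 groups overlap for each of these genes.

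ANXA6, the annexin with the core in duplicate, acts in membrane repair and cholesterol traffic. It had 126, 122 and 115 CPM in shCtrl, 114, 122 and 98.6 in sh#1 and 144, 157 and 148 in sh#2. Again sh#2 lay above all other libraries, while sh#1 and shCtrl overlapped. The mesenchymal marker sum, mostly VIM, was shifted in these sh#2 libraries (4070 to 4491 CPM). Its part in the ANXA6 and ANXA4 values was not tested. The log2 fold change was 0.30 with sh#2 (standard error 0.0874, edgeR quasi-likelihood test, Benjamini-Hochberg adjusted p = 0.00423) and 0.43 for sh#2 against sh#1 (standard error 0.0885, adjusted p = 0.000154 in the same fit).

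ANXA4, an annexin of epithelial membranes, was near the lower end of what could be tested. Its counts were 36, 25 and 35 in shCtrl, 33, 28 and 26 in sh#1 and 49, 33 and 36 in sh#2. As CPM the sh#2 libraries, at 15.8 to 22.9, lay above shCtrl at 10.2 to 14.2 and sh#1 at 9.16 to 13.5. The log2 fold change with sh#2 was 0.57 (standard error 0.222, edgeR quasi-likelihood test, Benjamini-Hochberg adjusted p = 0.0367), but this call was lost in 5 of 14 alternative settings. These were DESeq2, upper quartile normalization and the fits without shCtrl replicate 2 (0.45), shCtrl replicate 3 (0.61) or sh#2 replicate 1 (0.40). Sh#2 exceeded sh#1 by 0.70 (standard error 0.226, edgeR with Benjamini-Hochberg adjustment, adjusted p = 0.0173), a call lost in 3 of 14 settings, which were DESeq2 and the fits without sh#1 replicate 3 (0.54) or sh#2 replicate 1 (0.53).

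ANXA1, known for limiting inflammation through formyl peptide receptors, ran the other way. It had 150.4, 178 and 169 CPM in shCtrl, 195, 198 and 207 in sh#1 and 164, 147 and 143 in sh#2. The sh#1 libraries were above all others, and sh#2 overlapped shCtrl. The urothelial marker sum was also highest in these sh#1 cultures (308 to 323 CPM), and its part in the ANXA1 values was not tested. ANXA1 rose 1.21-fold with sh#1 (log2 fold change 0.27, standard error 0.0772, edgeR quasi-likelihood test, Benjamini-Hochberg adjusted p = 0.00707). Without shCtrl replicate 1, the lowest control, the adjusted p was 0.0693 and the call was lost. With sh#2 the log2 fold change was -0.13 (standard error 0.0816, adjusted p = 0.207 by edgeR with Benjamini-Hochberg adjustment), and sh#2 was lower than sh#1 by a log2 fold change of -0.40 (standard error 0.08, adjusted p = 9.63e-05 in the same fit).

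ANXA7 and ANXA11, annexins with long N-terminal tails that act in vesicle fusion and in RNA granule transport, had slightly lower values in knockdown libraries and were not called. ANXA7 had 49.5 to 55.4 CPM in shCtrl, 43.9 to 47.2 in sh#1 and 37.0 to 54.5 in sh#2. ANXA11 had 147 to 158, 130.3 to 144 and 134 to 152 CPM. For CDH11 KD the log2 fold changes were -0.20 (95% interval -0.44 to 0.05) and -0.11 (95% interval -0.29 to 0.06), with adjusted p = 0.302 and 0.395 by edgeR with Benjamini-Hochberg adjustment. With sh#2 alone ANXA7 passed only without sh#2 replicate 2, where its log2 fold change was -0.37 and its adjusted p 0.0462 in the same test. ANXA3, ANXA8 and ANXA10 had at most 2, 2 and 1 counts in any cultured library, so no difference was detectable at this depth.

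**Figure D3:**
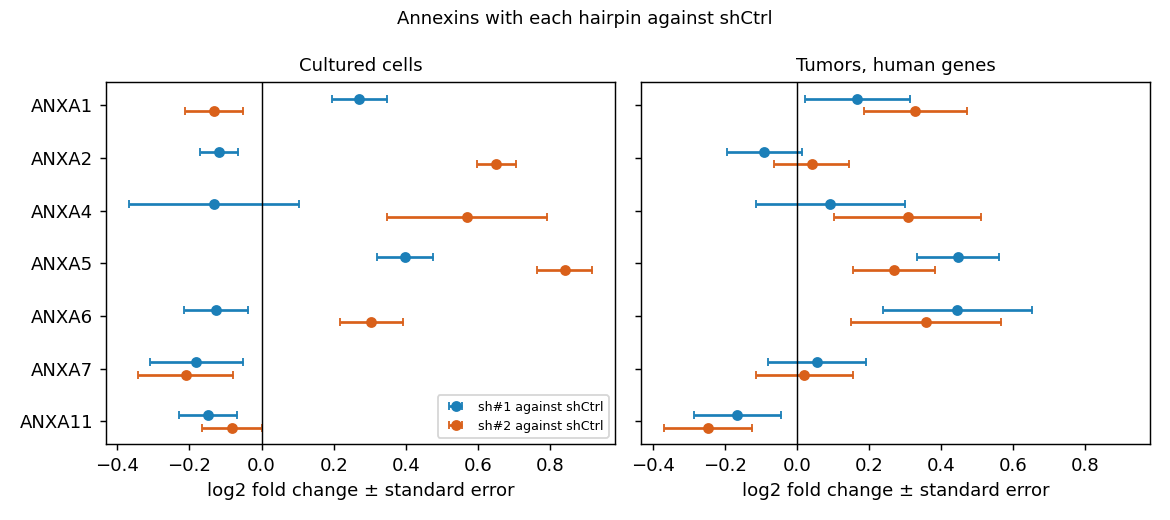
Log2 fold change ± standard error (horizontal axis) of the 7 tested annexins for sh#1 and for sh#2, each against shCtrl, in cultured cells on the left and in tumors on the right. In culture the hairpins lie apart for ANXA1, ANXA2, ANXA4, ANXA5 and ANXA6, and ANXA5 is to the right of 0 with both hairpins in both systems.

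As a family in culture, the annexins summed to 3644 ± 130 CPM in shCtrl, 3461 ± 74.5 in sh#1 and 5473 ± 97.6 in sh#2 (SD, n = 3 each). ANXA2 reads made up 78.6 to 85.8% of the annexin counts of these libraries, a share of counts that is not corrected for transcript length, so the sum mostly follows ANXA2. The share of ANXA5 among annexin counts was 4.10 to 4.40% in shCtrl, 5.25 to 6.28% in sh#1 and 4.96 to 5.34% in sh#2. The share of ANXA5 was highest with sh#1 although its level was highest with sh#2. In tumors this share was 6.46 to 8.05% in shCtrl, 9.05 to 11.2% in sh#1 and 7.20 to 9.14% in sh#2.

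In the tumors none of the other annexins passed an adjusted p of 0.1. The counts were 0 of 6 for CDH11 KD, where 1.51% of all tested genes were called, 0 of 6 for sh#1 (1.48% of all genes), 0 of 6 for sh#2 (2.68%) and 0 of 7 between the hairpins (1.19%), all by the edgeR quasi-likelihood test. At an unadjusted p under 0.05 the numbers were 1, 1, 1 and 0, and DESeq2 called 0 in each. Of all 9184 tested genes, 1164, 1029, 1259 and 913 were under that unadjusted p, in the same order.

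ANXA6 came closest for CDH11 KD. It had 32.9, 30.3, 14.8, 37.4 and 21.4 CPM in shCtrl tumors, 55.5, 31.6, 32.9, 41.3 and 38.4 in sh#1 and 32.7, 33.6, 35.4, 40.5 and 38.2 in sh#2. All 10 knockdown tumors lay above the shCtrl mean, but the groups overlapped. The log2 fold change was 0.40 (standard error 0.179, 95% interval 0.05 to 0.76, edgeR quasi-likelihood test, Benjamini-Hochberg adjusted p = 0.336), and without shCtrl tumor 3, the lowest, it was 0.25.

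ANXA1 had 223, 272, 263, 229 and 149 CPM in shCtrl tumors, 369, 275, 243, 219 and 201.0 in sh#1 and 279, 313, 296, 257 and 288 in sh#2. The sh#2 tumors were tightly grouped and the highest value was again that of sh#1 tumor 1. The log2 fold change for sh#2 was 0.33 (standard error 0.144, edgeR quasi-likelihood test, Benjamini-Hochberg adjusted p = 0.29), 0.21 without shCtrl tumor 5, the lowest, and 0.18 with the mouse-to-human count ratio in the fit. ANXA11 was under the shCtrl mean of 148 CPM in 10 of 10 knockdown tumors, with a log2 fold change of -0.20 for CDH11 KD (standard error 0.104, edgeR with Benjamini-Hochberg adjustment, adjusted p = 0.412). Without shCtrl tumor 4, the highest control, it was -0.12.

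ANXA2 did not repeat its culture pattern in the tumors. It had 1723 to 2479 CPM in shCtrl, 1707 to 2311 in sh#1 and 1933 to 2443 in sh#2, and the 3 ranges overlapped. The hairpin difference was 0.13 (standard error 0.104, 95% interval -0.07 to 0.34, edgeR quasi-likelihood test, Benjamini-Hochberg adjusted p = 0.727), an interval that does not reach the 0.77 measured in culture, although the systems were sequenced and counted separately. ANXA4 and ANXA7 had CDH11 KD log2 fold changes of 0.20 (95% interval -0.15 to 0.55) and 0.04 (95% interval -0.19 to 0.27). The value of ANXA4 was 0.41 without shCtrl tumor 4 and 0.12 without shCtrl tumor 5. ANXA10 had 0 or 1 counts in every tumor.

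Of the mouse genes, 9 annexins were listed and 5 were tested. None passed an adjusted p of 0.1 for CDH11 KD, and the share of called mouse genes was 0% (0 of 1669 by the edgeR quasi-likelihood test, with 92 at an unadjusted p under 0.05, and 1 by DESeq2, which was no annexin). Mouse Anxa1 was the only annexin at an unadjusted p under 0.05. It had 41.9 to 166 CPM in shCtrl tumors, 86.7 to 436 in sh#1 and 124 to 222 in sh#2, and 9 of 10 knockdown tumors lay above the shCtrl mean. Its log2 fold change was 0.67 (standard error 0.324, edgeR with Benjamini-Hochberg adjustment, adjusted p = 0.848), and 0.44 without sh#1 tumor 1. Mouse Anxa2, Anxa7 and Anxa3 had log2 fold changes of 0.52, 0.49 and -0.07 with standard errors of 0.268, 0.346 and 0.338. Anxa2 was at 0.34 without sh#1 tumor 1, Anxa7 was at 0.84 without shCtrl tumor 1, and Anxa3 ranged from -0.25 to 0.03 with tumors left out. All had under 100 counts in any tumor, which limits what these values can show.

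**Figure D4:**
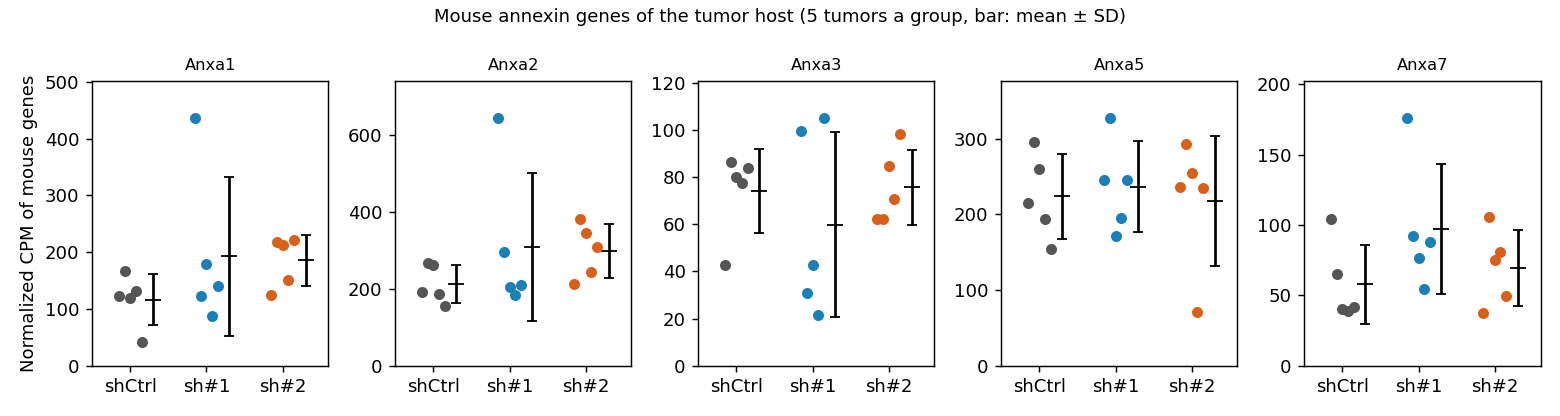
Normalized CPM of mouse genes (vertical axes, each from 0) of Anxa1, Anxa2, Anxa3, Anxa5 and Anxa7 in each tumor of shCtrl, sh#1 and sh#2, with bars for the mean ± SD. The groups overlap for each gene, and 1 sh#1 tumor stands far above the others for Anxa1 (436) and Anxa2 (643).

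Genes that work with annexins were read from 3 lists. S100 and penta-EF-hand proteins bind calcium and pair with annexins. In culture 0 of 8 tested members rose and 1 fell with CDH11 KD, where 17.4% of all tested genes were called, and their median log2 fold change was -0.01 beside a median of 0.00 over all genes. The member that fell was PDCD6 (log2 fold change -0.43, standard error 0.13, edgeR quasi-likelihood test, Benjamini-Hochberg adjusted p = 0.0285), which recruits repair proteins to damaged membranes and is known as a partner of ANXA7 and ANXA11. Its call held in 11 of 15 alternative settings and was lost without shCtrl replicate 2 or 3, sh#1 replicate 2 or sh#2 replicate 1 (log2 fold change -0.41 to -0.33).

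Flippases and scramblases set how much phosphatidylserine, the lipid bound by ANXA5, is exposed on the cell surface. In culture 1 of 10 tested members rose and 1 fell, a share close to the 17.4% of all genes called, and the median log2 fold change was -0.11. The scramblase ANO6 rose from 90.1 ± 4.33 CPM in shCtrl (n = 3) to 127 ± 28.0 in CDH11 KD (n = 6), with a log2 fold change of 0.50 (standard error 0.158, edgeR with Benjamini-Hochberg adjustment, adjusted p = 0.0428). This call held in 7 of 15 alternative settings. It was lost with the replicate number as a block and without any single shCtrl or sh#2 replicate or sh#1 replicate 1, where the log2 fold change was 0.40 to 0.53 and the adjusted p 0.0546 to 0.158 in the same test. The rise of ANO6 was larger with sh#2 (0.73) than with sh#1 (0.23), with an adjusted p of 3.88e-05 for the difference by edgeR with Benjamini-Hochberg adjustment. Between hairpins it was 1 of 3 called among these 10 genes, 2 higher and 1 lower with sh#2, beside 24.7% of all genes. The mesenchymal marker sum, mostly VIM, stood apart in the same sh#2 cultures (4070 to 4491 CPM). Its part in the ANO6 values was not tested. TMEM30A, the chaperone subunit of most flippases, fell from 65.7 ± 7.43 to 46.6 ± 4.87 CPM (log2 fold change -0.50, standard error 0.121, adjusted p = 0.00903 in the same test), which held in 14 of 15 and was lost without shCtrl replicate 3 (-0.40).

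Of 16 tested membrane repair genes in culture, 1 rose and 3 fell, beside 17.4% called over all genes, and the median log2 fold change was 0.08. EHD1, a membrane-remodelling ATPase, fell by 0.63, CAVIN1, the coat protein of caveolae, fell by 0.59, and AHNAK, a scaffold known to bind the ANXA2 and S100A10 complex, fell by 0.58 on the log2 scale. These falls held in all 15 alternative settings. CHMP3, a subunit of the ESCRT-III complex, rose by 0.25 (adjusted p = 0.0443 by edgeR with Benjamini-Hochberg adjustment), a call that held in 5 of 15 alternative settings. It was lost under upper quartile normalization, with no low-count filter, with at least 10 counts in every library, with the replicate number as a block and without any single shCtrl or sh#2 replicate, at log2 fold changes of 0.22 to 0.28. In tumors no member of the 3 lists passed (0 of 8, 0 of 9 and 0 of 15 by edgeR), where 1.51% of all genes did. The log2 fold change in tumors was -0.41 for EHD1, 0.05 for CAVIN1 and 0.14 for AHNAK, so the falls of CAVIN1 and AHNAK were not seen there. All 9 tested flippases and scramblases had positive log2 fold changes in tumors, including TMEM30A (0.18), which fell in culture. Their median was 0.26 beside 0.01 over all genes, and none was called. In 4 of 23 alternative settings 1 of them was called higher, which were no low-count filter, the replicate number as a block and leaving out either shCtrl tumor 5 or sh#1 tumor 2.

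Likeness to ANXA5 was measured as the smaller of 2 Pearson correlations of log2 CPM, over the 9 cultured libraries and over the 15 tumors, for 8307 genes tested in both. These values describe libraries that share their groups and depth. The most similar genes were PPP1R3B (0.86 in culture and 0.85 in tumors), MYO1E (0.89 and 0.85), HOMER1 (0.90 and 0.81), MT-CO1 (0.96 and 0.81) and DUSP5 (0.79 and 0.82). Of the annexins ANXA6 ranked highest, at 214, with 0.55 and 0.57. ANXA2 followed ANXA5 in culture (0.79) but not in tumors (0.04), and ANXA11 had negative values in both (-0.40 and -0.52).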

How the data were processed

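RNA-seq counts of 9 cultured libraries and 15 tumors were used. The authors deposited raw read counts per gene. Per the paper's methods, reads of cultured cells were trimmed in CLC Genomics Workbench and mapped to hg38 with RaNAseq, and tumor reads were trimmed with trim galore and mapped to hg38 with HISAT2. The counter, the annotation, any molecular identifiers and the separation of human from mouse reads are not given in the sources used here, so reads shared by near-identical copies may be split. Without identifiers, counts are reads and not molecules.

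Differences were tested with edgeR 4.0.16 (TMM, filterByExpr, robust quasi-likelihood fit, Benjamini-Hochberg adjustment over all tested genes) in R 4.3.3, with thresholds of 0.05 in culture and 0.1 in tumors and mouse genes. CDH11 KD used a fit of 2 groups, and each hairpin a fit of 3 groups. Intervals are 95%. DESeq2 1.42.0, other normalization and filters, left-out libraries, a replicate block, the mouse share as a covariate and, in tumors, added pseudogene copies were the alternatives. No pair of replicate libraries was alike within sampling noise.

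The members and lists were chosen with earlier results of these data known. All members are named, and of each list at most the 4 called genes with the largest change. The 5 genes most like ANXA5 were named by correlation (prior count 2). A further 13 genes with blank cultured entries were not analysed here.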

Additional observations from a re-analysis of the deposited data

Results flagged for a closer look

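Of 36 groups of 5 tumors examined for 1 value far from the rest, 5 had such a value, and chance gives about 1 in 20. The groups share the same tumors and several have low counts, so no excess can be read from these numbers. ANXA4 was at 45.4 CPM in shCtrl tumor 4, where the other shCtrl tumors had 21.4 to 28.1. Without it the CDH11 KD log2 fold change of ANXA4 was 0.41 in place of 0.20. Among mouse genes, sh#1 tumor 1 stood out for Anxa1, at 436 CPM where the others of its group had 86.7 to 180, and for Anxa2, at 643 against 184 to 296. This tumor also had the highest mouse share of counts, 30.0%, and the part of that share in these values was not tested. Anxa5 was at 70.7 CPM in sh#2 tumor 4, from 7 counts, where the other sh#2 tumors had 234 to 292. Anxa3 was at 42.9 CPM in shCtrl tumor 1, from 7 counts, against 77.4 to 86.6.

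In culture the effects of the hairpins differed from each other for 5 annexins, by the edgeR test of sh#2 against sh#1 that called 24.7% of all genes. The log2 differences were 0.77 for ANXA2, 0.70 for ANXA4, 0.44 for ANXA5, 0.43 for ANXA6 and -0.40 for ANXA1. The ANXA4 call was lost in 3 of 14 alternative settings, DESeq2 included.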

How the results depend on the processing

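Of the tested values of single annexins under the alternatives, 958 kept their direction and side of the threshold, 9 lost a call, 2 gained one and 28 changed sign, none of which had been called. The 110 values of ANXA5 against shCtrl, which carry no test, kept their sign. The cause of these changes was not tested. Adding pseudogene copies could not be run in culture, where the copies held 0 counts, and in tumors it added 0 to 2 counts a tumor, so it says little about shared reads. With both hairpins in culture, the fit of 3 groups called 1 annexin in place of 0, ANXA2 (log2 fold change 0.27, edgeR with Benjamini-Hochberg adjustment, adjusted p = 7.11e-06). The number called for sh#1 in culture ranged from 0 to 1 when libraries were left out, the call of ANXA1 being lost without shCtrl replicate 1. The annexin counts for sh#2 and between hairpins in culture ranged from 2 to 4 and from 4 to 5, and those in tumors and mouse genes stayed at 0. Changes of sign were as follows. With libraries left out, the log2 fold change ranged from -0.095 to 0.036 for ANXA2 (CDH11 KD, tumors), -0.0324 to 0.0986 for ANXA2 (sh#2, tumors), -0.255 to 0.0304 for ANXA4 (sh#1, culture), -0.0147 to 0.307 for ANXA4 (sh#1, tumors), -0.197 to 0.0867 for ANXA7 (sh#2 against sh#1, culture), -0.00139 to 0.0729 for ANXA7 (CDH11 KD, tumors), -0.103 to 0.0216 for ANXA7 (sh#2 against sh#1, tumors), -0.0372 to 0.0759 for ANXA7 (sh#2, tumors), -0.252 to 0.0291 for mouse Anxa3 and -0.0648 to 0.132 for mouse Anxa5. ANXA7 with sh#2 in tumors was -0.00635 under upper quartile normalization, -0.0173 with no low-count filter and -0.0144 with the mouse to human ratio as a covariate. Mouse Anxa5 was -0.0672 with no low-count filter and -0.00975 with the replicate block. The correlations of same-numbered deviations ran from -0.01 to 0.06 in culture, -0.10 to 0.13 in human genes of tumors and -0.27 to 0.36 in mouse genes. They were over 0.1 in 0 of 9 pairs in culture, 2 of 15 in human genes of tumors and 5 of 15 in mouse genes. Pairing by replicate number was thus not seen in culture and is not settled for mouse genes. The replicate block gave ANXA5 log2 fold changes of 0.63 in culture and 0.36 in tumors, called 0 annexins for CDH11 KD in either system, and called 1 tumor flippase or scramblase in place of 0.

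Counts over all genes moved by more than 1.5 times in these cases. For CDH11 KD in culture 1719 became 3291 in the fit of 3 groups and 882 to 1873 with libraries left out. For CDH11 KD in tumors 139 became 276 with no low-count filter, 227 in the fit of 3 groups, 63 with the mouse to human ratio and 48 to 399 with tumors left out. For sh#1, 2209 in culture became 1346 by DESeq2, and 136 in tumors became 243 with no low-count filter, 89 with at least 10 counts in every library and 69 to 287 with tumors left out. For sh#2 in tumors 246 became 126 to 552 with tumors left out. Between hairpins, 2431 in culture became 1543 by DESeq2, and 109 in tumors became 173 with no low-count filter, 63 with at least 10 counts in every library and 44 to 144 with tumors left out. Mouse genes went from 0 to 8 with no low-count filter. For the lists, chosen as an alternative after seeing the data, membrane repair genes called higher in culture ranged from 0 to 2. Counts under about 50, as for ANXA4, ANXA6 in tumors and most mouse annexins, limit what could be detected.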
